A study of Mus musculus with 8 samples.

Results

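The 9 genes described here belong to growth hormone receptor and STAT5 signalling in liver cells. The receptors are Ghr for growth hormone and Prlr for prolactin, and the kinase is Jak2. Stat5a and Stat5b are the transcription factors, Socs2 and Cish the feedback genes, and Bcl6 and Cux2 the downstream regulators. All 9 genes were chosen by name and function from the 54838 genes of the deposited tables, with earlier results of these data known. Of the 9 genes, 8 were abundant enough to be tested. Bulk RNA sequencing covered 8 liver pieces of male C57BL/6J mice of the Wild Type genotype, 4 labelled tumour and 4 labelled non-tumour. Both groups shared 1 treatment: DEN (diethylnitrosamine, a liver carcinogen) by intraperitoneal injection (IP) on day 15, and HFD (high-fat diet) with SW, an abbreviation that the labels do not expand. The samples were taken at a 30-week point, which the labels count from the injection in one field and attach to the diet in another. There was no untreated liver, and nothing in the labels ties a piece to a mouse. The p-values therefore reflect only the spread between these samples, which may be technical.

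The libraries held 15446690 to 21977052 counts each. Tumour 2 and tumour 4 differed little more than by counting noise, and so did non-tumour 2, 3 and 4 (their gene counts gave a chi-square of 1.58 to 3.28 for each degree of freedom, against 71.7 to 164.9 in every other pair). Each such set was therefore counted as 1 sample, which leaves 5 distinct profiles: 3 of tumour (tumour 1, tumour 2/4 and tumour 3) and 2 of non-tumour (non-tumour 1 and non-tumour 2/3/4). All 7 hepatocyte markers (Alb, Ttr, Apoa1, Serpina1a, Tat, Cyp2e1 and Hnf4a) were present in every library, with a summed level of 125300 to 175000 CPM in the tumour libraries and 100300 to 117000 CPM in the non-tumour libraries. CPM is a gene's counts relative to the library's total, scaled to a common size (counts-per-million) and corrected for library composition. In bulk tissue, fewer cells that express a gene and less RNA per cell cannot be told apart.

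Growth hormone reaches the liver in pulses from the pituitary and binds its receptor, which holds the kinase JAK2. JAK2 phosphorylates STAT5A and STAT5B, which pair, enter the nucleus and bind DNA at the palindrome TTCNNNGAA. STAT5 switches on Igf1 and its own brakes, Socs2 and Cish. Because the pulses differ between male and female rodents, STAT5 also sets many sex-biased liver genes, partly through BCL6, a repressor that is higher in male liver, and CUX2, a repressor that is higher in female liver.

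RefSeq promoter windows (GRCm38.p6, 250 bases before to 50 after a transcription start site) were found for 8 of the 9 genes, 15 windows in all. They were searched for TTCNNNGAA, which reads the same on both strands, so that each match was counted 1 time. The motif occurred in 4 of the 15 windows, 2 of Bcl6, 1 of Cish and 1 of Prlr. Of all 32851 windows of this length, 8.30% held at least 1 match, 0.457% held 2 or more and 0.0335% (11 windows) held 3 or more. The windows with the most matches are shown because they belong to the feedback gene and the downstream regulator whose levels varied most. Capitals mark each match, and both are written 5′ to 3′ along the gene's strand.
Cish, chr9:107296409-107296708 (plus strand): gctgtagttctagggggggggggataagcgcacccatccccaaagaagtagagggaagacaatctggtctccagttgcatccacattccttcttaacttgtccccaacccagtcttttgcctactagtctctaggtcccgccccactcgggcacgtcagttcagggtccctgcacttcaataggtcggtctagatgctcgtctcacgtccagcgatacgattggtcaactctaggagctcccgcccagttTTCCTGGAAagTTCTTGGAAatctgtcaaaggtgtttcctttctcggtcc
Bcl6, chr16:23981234-23981533 (minus strand): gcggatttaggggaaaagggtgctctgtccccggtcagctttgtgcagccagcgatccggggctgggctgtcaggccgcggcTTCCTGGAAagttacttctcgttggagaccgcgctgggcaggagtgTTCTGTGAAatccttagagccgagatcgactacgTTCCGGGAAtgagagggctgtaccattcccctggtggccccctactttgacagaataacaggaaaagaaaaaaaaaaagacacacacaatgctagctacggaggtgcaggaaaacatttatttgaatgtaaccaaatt
In the Cish window, the matches TTCCTGGAA and TTCTTGGAA began 0 and 11 bases from the start site. In the Bcl6 window, TTCCTGGAA, TTCTGTGAA and TTCCGGGAA began at -168, -122 and -88 bases from the start site. The second Bcl6 window, chr16:23988803-23989102 (minus strand), held 1 match at -118 bases and the Prlr window chr15:10223656-10223955 (plus strand) held 1 at -110 bases. These are matches of letters, and binding was not measured.

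**Figure D1:**
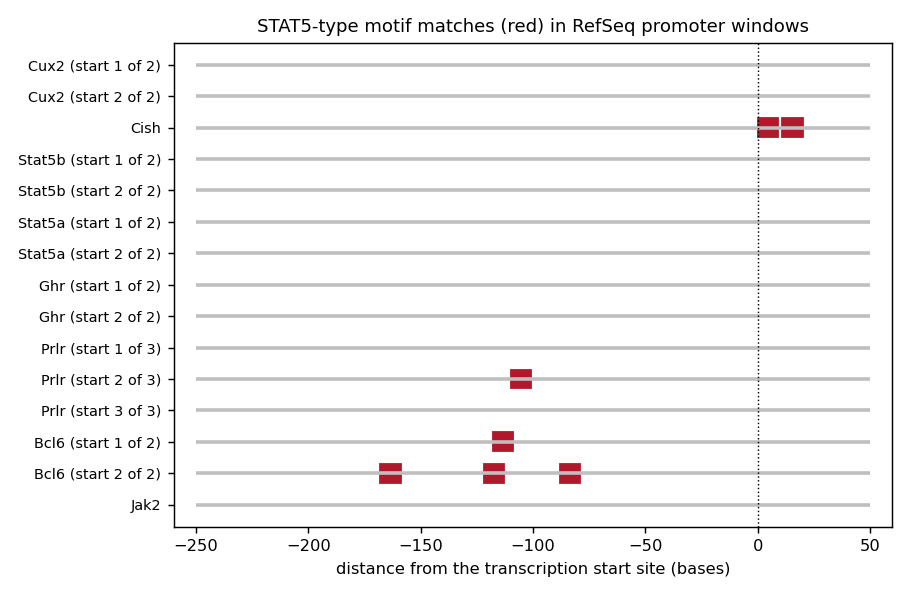
Distance in bases from the transcription start site (x axis) for each of the 15 RefSeq promoter windows of 8 genes (1 row per start site). Red blocks mark matches to TTCNNNGAA: 2 next to the Cish start, 3 in one Bcl6 window, and 1 each in the other Bcl6 window and in 1 Prlr window.

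None of the 8 genes passed the test between tumour and non-tumour when each distinct profile was counted as 1 sample (edgeR quasi-likelihood test, Benjamini-Hochberg adjusted p = 0.995 for each). Neither did any other gene: 0% of the 13650 genes tested were called in this comparison, which has 3 profiles against 2. Without adjustment, 451 genes (3.3%) had a p under 0.05, and none of the 8 genes was among them. On the same profiles DESeq2 called 2 genes and limma voom 0, none of them among the 8. Treating the 8 libraries as separate replicates, which counts near-identical libraries more than once, called 56 of 12880 genes (0.435%) and none of the 8. An unadjusted p under 0.05 was then reached by 18% of genes and by 2 of the 8, Stat5b and Socs2. In 8 of the 9 genes, all but Stat5b, the range within tumour exceeded the distance between the group means.

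The ligands come first in the pathway. Gh and Prl, which encode growth hormone and prolactin and are made in the pituitary, had 0 counts in all 8 libraries. A count of 0, for which up to 3 counts are allowed, corresponds to at most 0.136 CPM in the library with the lowest limit and 0.205 CPM in the one with the highest, for counting error only.

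Ghr (ENSMUSG00000055737, chromosome 15, 3317760 to 3583492, minus strand, GRCm38), the growth hormone receptor, was the most abundant of the 9 genes. Tumour 1 held 381 CPM, tumour 2 and tumour 4 held 496 and 498, and tumour 3 held 670. The non-tumour libraries held 560, 645, 695 and 680 CPM in the order 1 to 4. In CPM, tumour 1 was the lowest and tumour 3 lay inside the non-tumour range, so the groups overlapped. The place of tumour 3 depended on the scale. Per length (TPM, counts per length scaled to the same total in each library), tumour 3 held 124.5, below the non-tumour range of 126.8 to 148.7. Tumours 2 and 4, at 134.4 and 132.6 TPM, lay inside it, and tumour 1 was again the lowest. The means were 516 ± 146 CPM in tumour (SD, n = 3) and 617 ± 80.1 CPM in non-tumour (SD, n = 2). The log2 fold change was -0.26 (SE 0.30, 95% interval -0.98 to 0.46).

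Prlr (ENSMUSG00000005268, chromosome 15, 10177238 to 10349180, plus strand) encodes the prolactin receptor, a close relative of the growth hormone receptor that also signals through JAK2 and STAT5. It shares exon bases with the predicted gene Gm21973 on the same strand, and reads there are assigned to neither gene, so its level may be understated. Tumour 1 held 43.3 CPM, tumours 2 and 4 held 73.7 and 75.3, and tumour 3 held 92.0, while non-tumour 1 to 4 held 70.6, 84.2, 90.8 and 89.8 CPM. Tumour 1 was the lowest of the 8 libraries for both receptors, and the groups overlapped. The log2 fold change of Prlr was -0.19 (SE 0.33, 95% interval -0.98 to 0.60). The ratio of Ghr to Prlr per length stayed within a narrow band, from 11.2 in tumour 4 to 14.9 in tumour 1, and the non-tumour libraries, at 12.8 to 13.5, lay inside it.

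Jak2 (ENSMUSG00000024789, chromosome 19, 29251828 to 29313080, plus strand), the kinase bound to both receptors, was at 18.3 CPM in tumour 1, 17.9 in tumour 2, 19.1 in tumour 4 and 12.2 in tumour 3. Non-tumour 1 held 18.7 CPM and non-tumour 2 to 4 held 15.6, 15.4 and 15.5. Tumour 3 was the lowest library, and the other tumour libraries lay within or just above the non-tumour range. Tumour and non-tumour differed by a log2 fold change of -0.07 (SE 0.23, 95% interval -0.62 to 0.49), and its sign turned in 4 of 15 alternatives.

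Stat5a and Stat5b encode the transcription factors that JAK2 phosphorylates, and STAT5B is the main form in liver. The genes lie on chromosome 11, back to back and 8626 bases apart: Stat5b (ENSMUSG00000020919, 100780731 to 100850724, minus strand) and Stat5a (ENSMUSG00000004043, 100859351 to 100885169, plus strand). Of 50-base stretches of Stat5a transcripts, 8.21% also occur in Stat5b transcripts, and 10.98% of Stat5b stretches occur in Stat5a. Reads that matched both could not be counted for either, which leaves most of each gene countable.

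Stat5b was at 44.0 CPM in tumour 1, at 44.4 and 44.5 in tumours 2 and 4 and at 35.1 in tumour 3, whereas non-tumour 1 to 4 held 55.7, 49.8, 54.7 and 49.8 CPM. It was the only one of the 9 genes whose groups did not overlap in CPM, every tumour library lying below every non-tumour library. Such a pattern, with tumour lower, was seen in 4.92% of genes tested, and with tumour higher in 5.28%. Per length, a scale not corrected for library composition, the Stat5b groups overlapped. Tumours 2 and 4 held 19.65 and 19.35 TPM (counts per length, scaled to the same total in each library). Non-tumour 2 to 4 held 17.82, 19.12 and 17.76 TPM. The means were 41.2 ± 5.27 CPM in tumour (SD, n = 3) and 53.6 ± 3.04 CPM in non-tumour (SD, n = 2). For Stat5b the log2 fold change was -0.39 (SE 0.17, 95% interval -0.80 to 0.03). Its p was 0.0656 before and 0.995 after adjustment (edgeR). With the 8 libraries as separate replicates its adjusted p was 0.162 (edgeR).

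Stat5a was at 13.8 CPM in tumour 1, 12.6 in tumour 2, 10.7 in tumour 4 and 16.5 in tumour 3, and at 13.2, 11.9, 10.9 and 11.8 CPM in non-tumour 1 to 4. The groups overlapped and the log2 fold change was 0.16 (SE 0.21, 95% interval -0.33 to 0.66). In CPM, tumour 3 thus held the least Stat5b and the most Stat5a of the 8 libraries. By TPM it again held the least Stat5b (10.65), but its Stat5a (3.90) was below that of tumours 1 and 2 (4.00 and 4.32). Per length, Stat5b exceeded Stat5a in every library, by 2.73 times in tumour 3, by 4.11 to 5.38 times in the other tumour libraries and by 5.40 to 6.46 times in non-tumour.

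**Figure D2:**
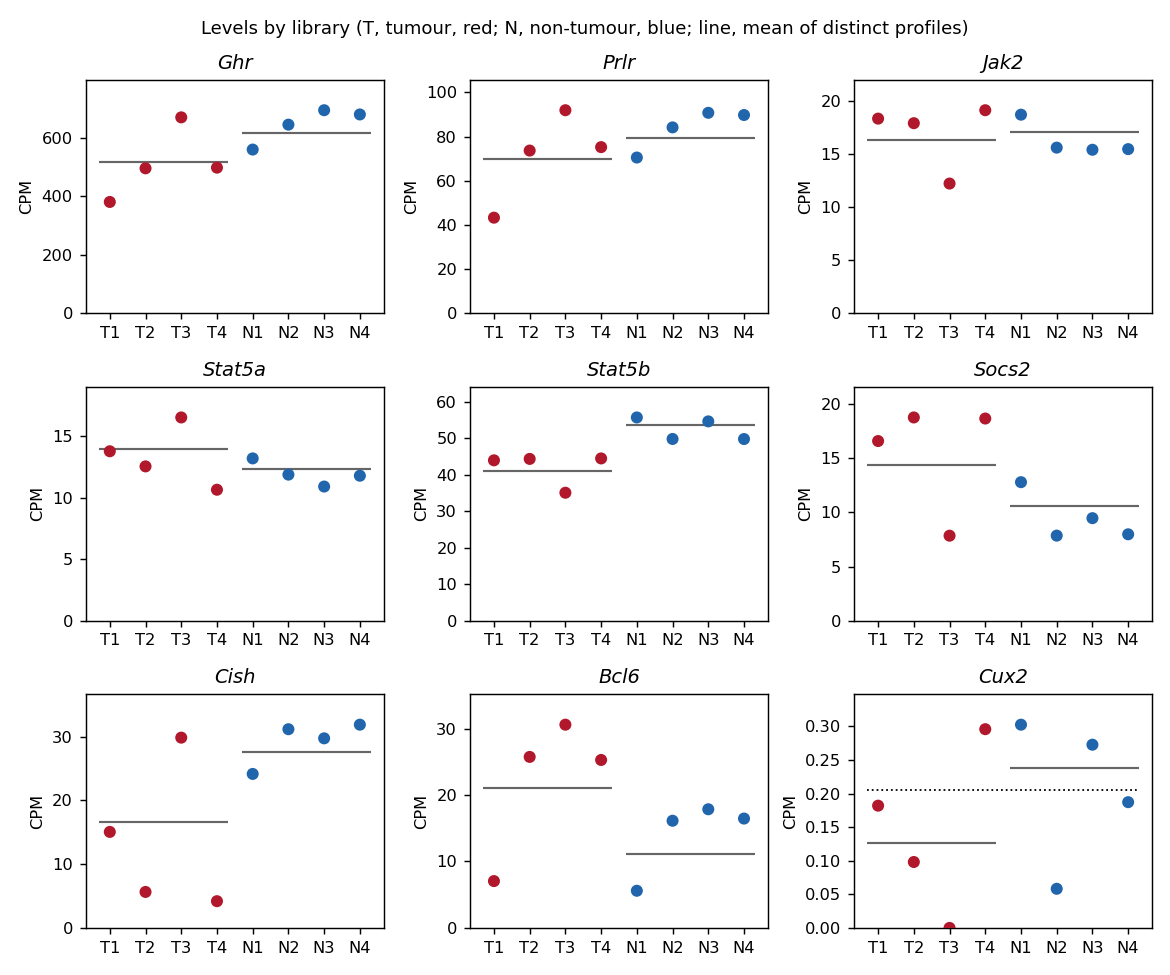
CPM (y axis, from 0) of each of the 9 genes in the 8 libraries (x axis; T, tumour, red; N, non-tumour, blue); grey lines are means over the distinct profiles and the dotted line in the Cux2 panel is the highest limit for a count of 0, 0.205 CPM. The groups are separate for Stat5b, while Cish runs from 4.19 to 29.8 CPM within tumour.

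Socs2 and Cish are both targets of STAT5 whose products damp the signal, SOCS2 mainly at the growth hormone receptor. Socs2 (ENSMUSG00000020027, chromosome 10, 95385362 to 95417180, minus strand) was at 16.6 CPM in tumour 1, 18.8 in tumour 2, 18.7 in tumour 4 and 7.85 in tumour 3. The non-tumour libraries held 12.8, 7.86, 9.47 and 7.98 CPM. Tumours 1, 2 and 4 lay above every non-tumour library, and tumour 3 lay level with the lowest of them. Its log2 fold change was 0.45 (SE 0.40, 95% interval -0.51 to 1.40).

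Cish (ENSMUSG00000032578, chromosome 9, 107296026 to 107302784, plus strand) ran the other way. Tumour 1 held 15.1 CPM, tumours 2 and 4 held 5.64 and 4.19, and tumour 3 held 29.8, while non-tumour 1 to 4 held 24.1, 31.2, 29.7 and 31.9 CPM. Tumours 1, 2 and 4 lay below every non-tumour library, and tumour 3 lay among them. The mean was 16.6 ± 12.5 CPM in tumour (SD, n = 3) and 27.5 ± 4.79 CPM in non-tumour (SD, n = 2), and the highest tumour profile exceeded the lowest 6.07 times. Its log2 fold change was -0.76 (SE 0.64, 95% interval -2.31 to 0.80).

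The ratio of Socs2 to Cish per length set tumours 1, 2 and 4 apart from the other libraries. It was 0.743 in tumour 1, 2.24 in tumour 2 and 3.00 in tumour 4. In tumour 3 it was 0.177, inside the non-tumour range of 0.169 to 0.357. Socs2 therefore exceeded Cish only in tumours 2 and 4, which count as 1 profile. This ratio was chosen after the values of both genes were known.

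**Figure D3:**
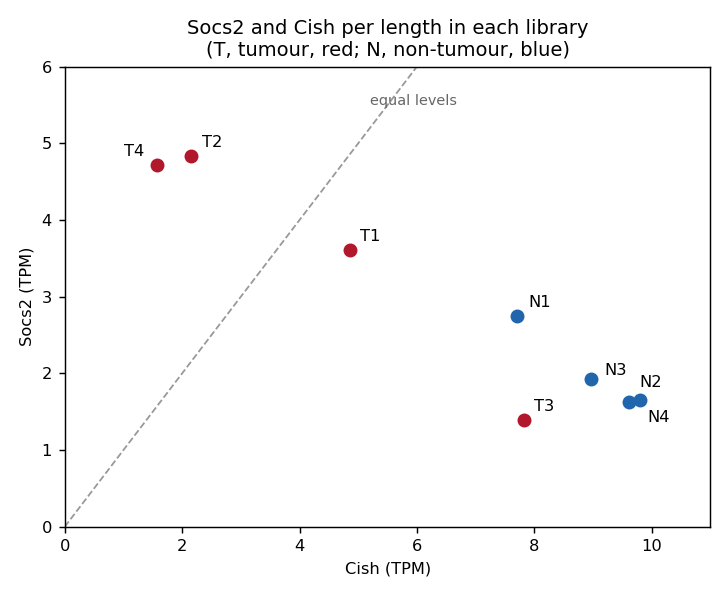
TPM (counts per length, scaled to the same total in each library) of Cish (x axis) against Socs2 (y axis), 1 point per library (T, tumour, red; N, non-tumour, blue); the dashed line marks equal levels. T2 and T4 lie above the line, T3 lies with N2 to N4 at high Cish and low Socs2, and T1 and N1 lie between.

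The tumours that differed in Socs2 and Cish also differed in markers of another cell type. The 6 cholangiocyte (bile duct) markers summed to 404 CPM in tumour 1, to 189 and 197 in tumours 2 and 4 and to 22.6 in tumour 3, while the non-tumour libraries held 33.1 to 39.9 CPM. All 5 of the markers tested were higher in tumour and none passed the test. None of the 6 was at 0 in all libraries, and Epcam stayed under 1 CPM. Their part in the Socs2 and Cish values was not tested.

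Bcl6 (ENSMUSG00000022508, chromosome 16, 23965052 to 23988852, minus strand), the repressor with the 3-match promoter window, stood at 7.05 CPM in tumour 1, 25.7 in tumour 2, 25.3 in tumour 4 and 30.6 in tumour 3. It was at 5.59 CPM in non-tumour 1 and at 16.1, 17.9 and 16.5 CPM in non-tumour 2, 3 and 4. Low values thus occurred in 1 profile of each group, tumour 1 and non-tumour 1, and the remaining tumours lay above the remaining non-tumour libraries. The means were 21.0 ± 12.4 CPM in tumour (SD, n = 3) and 11.2 ± 7.94 CPM in non-tumour (SD, n = 2). Their log2 fold change was 0.88 (SE 0.69, 95% interval -0.79 to 2.56).

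Some clock genes were low in the same libraries as Bcl6. Of 13 tested, 6 were lowest of their group in both tumour 1 and non-tumour 1 (Cry2, Per3, Nr1d1, Nr1d2, Dbp and Tef) and 7 were not. The share of all genes with this pattern was not counted, so the count cannot be called particular to clock genes. Over genes in general, the deviations of tumour 1 and non-tumour 1 from their group means correlated at 0.350. Dbp, a clock-controlled transcription factor whose RNA peaks once a day in liver, was at 4.27 CPM in tumour 1 and 3.98 in non-tumour 1, the libraries lowest in Bcl6. Dbp was at 85.2 CPM in tumour 3, the library highest in Bcl6 by CPM. Per length, tumours 2 and 4 held more Bcl6 (9.43 and 9.09 TPM) than tumour 3 (7.68 TPM). Dbp was at 13.6 and 14.2 CPM in tumours 2 and 4 and at 9.27 to 10.04 CPM in non-tumour 2 to 4. Per2, by contrast, was higher in non-tumour 1 (6.90 CPM) than in non-tumour 2 to 4 (4.55 to 5.24 CPM). Non-tumour 1 also held more of the 7 Kupffer cell and macrophage markers, which summed to 434 CPM there and to 127 to 163 CPM in the other libraries, tumour 1 included. Its 5 endothelial markers summed to 210 CPM, against 87.2 to 126 CPM elsewhere. No marker of these lists was at 0 in all libraries, and the part of time of day or cell makeup in the Bcl6 values was not tested.

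Cux2 (ENSMUSG00000042589, chromosome 5, 121856366 to 122050102, minus strand) was hardly detected. It had 4, 2, 6 and 0 reads in tumour 1, 2, 4 and 3, and 6, 1, 4 and 3 reads in non-tumour 1 to 4. These counts did not exceed 3 reads in 4 of the 8 libraries, so no fold change is given and a difference was not detectable at this depth.

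Per length, the 9 genes ranked in a steep order. Over the 5 profiles the mean was 123.6 ± 22.1 TPM (SD) for Ghr, 17.1 ± 3.92 for Stat5b, 9.69 ± 2.35 for Prlr, 6.85 ± 1.85 for Jak2 and 6.34 ± 3.00 for Cish. Bcl6 followed with 5.15 ± 3.32 TPM, Stat5a with 3.76 ± 0.338, Socs2 with 2.85 ± 1.39 and Cux2 with 0.0359 ± 0.0228. Only Ghr stood clear of its neighbour Stat5b at the top, and Socs2 stood clear of Cux2 at the bottom. The ranges over profiles of every other pair of neighbours overlapped.

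Cish and Bcl6 varied most of the 8 tested genes, and Prlr and Socs2 followed. Over the 5 profiles, the range on the log2 CPM scale was 0.52 for Stat5a, 0.61 for Jak2, 0.67 for Stat5b and 0.82 for Ghr, near the median of 0.72 over all genes tested. Prlr ranged over 1.08 and Socs2 over 1.24, and 27.8% and 21.6% of genes tested ranged more widely. Cish ranged over 2.64 and Bcl6 over 2.43, widths that 3.75% and 4.66% of genes tested exceeded. Most of the Cish range lay within the tumours (2.59, against 0.35 between the non-tumour profiles), whereas Bcl6 ranged widely in both groups (2.10 and 1.57).

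**Figure D4:**
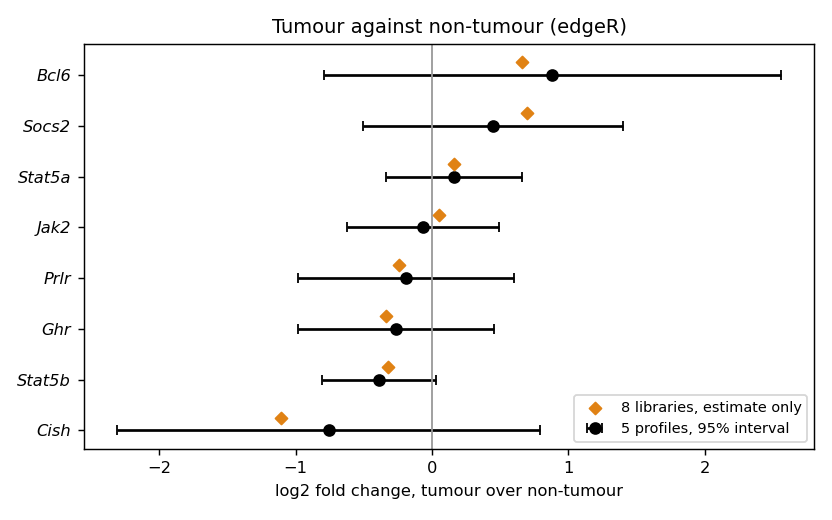
Log2 fold change of tumour over non-tumour (x axis) for the 8 genes tested: black points and bars are the estimate and 95% interval from the 5 profiles, orange diamonds the estimate from 8 libraries as separate replicates. Every interval includes 0, and those of Cish and Bcl6 are the widest.

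For the 4 tested genes that ranged over at least 1 log2 unit, the 3 genes with the most similar profile were sought, by the root mean square difference in centred log2 CPM over the 5 profiles. For Prlr they were Aqp9, a glycerol channel (difference 0.05), Cyp2c50 (0.07) and Cyp2c54 (0.07). Aqp9, for example, stood at 242.8 CPM in tumour 1 and 497 in tumour 3, the same libraries that were lowest and highest for Prlr in CPM. Per length, Prlr was higher in tumour 4 (11.82 TPM) than in tumour 3 (10.08 TPM). For Socs2 they were Lrp12 (0.06), Dnajc10 (0.08) and Anxa5 (0.09), each lowest in the tumour 3 profile.

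Cish and Bcl6 had looser matches. For Cish they were Dct (0.17), Hsd3b5 (0.24), a steroid dehydrogenase of male liver, and Cyp4a12b (0.25), a male-biased cytochrome P450. Hsd3b5 was at 197 CPM in tumour 1, at 55.3 in tumour 2/4 and at 273.5 in tumour 3, while the non-tumour profiles held 304 and 269.6, so it was low where Cish was low. For Bcl6 they were Cyp3a59 (0.31), Tpm2 (0.35) and Wfdc2 (0.37). Only 5 profiles enter each likeness, which is a description, and no correlation is given.

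The other genes of the pathway were taken from 12 lists with 134 genes. None passed the test over the 5 profiles, with an adjusted p of 0.995 for each gene named below (edgeR). The median log2 fold change was 0.01 over all 13650 genes tested and -0.13 over the 8 genes of the main set, of which 3 were higher and 5 lower. Of 11 other cytokine receptor genes tested, 5 were higher and 6 lower in tumour (median -0.24). Il6ra, the interleukin-6 receptor chain, was at 12.5 to 17.4 CPM in tumour and 18.3 to 23.2 in non-tumour (log2 fold change -0.49, SE 0.18).

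Of 7 other JAK and STAT genes tested, 2 were higher and 5 lower (median -0.06). Stat2, which carries interferon signals, was at 39.8 to 62.5 CPM in tumour and 33.5 to 38.9 in non-tumour (log2 fold change 0.47, SE 0.23). It was highest in tumour 3, where Stat5b was lowest. Stat6, which carries interleukin-4 signals, was at 39.4 to 48.1 CPM in tumour and 49.5 to 52.0 in non-tumour (log2 fold change -0.23, SE 0.16).

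Of 5 other SOCS genes tested, 2 were higher and 3 lower (median -0.15). Socs7 was at 6.59 to 9.51 CPM in tumour and 10.1 to 12.5 in non-tumour (log2 fold change -0.51, SE 0.21). The 14 phosphatases and other brakes gave 3 higher and 11 lower (median -0.17), with Ptprf, Pias4 and Ptpn6 at the lowest p-values and none with an unadjusted p under 0.05. The 12 adaptors and kinases at the receptor gave 4 higher and 8 lower (median -0.11). Among them Grb10, an adaptor that restrains receptor kinase signalling, was at 8.28, 11.6 and 13.6 CPM in tumours 1, 2 and 4 and at 2.47 in tumour 3, against 3.83 in non-tumour 1 and 1.23 to 1.75 in non-tumour 2 to 4. Like Socs2, Grb10 was thus high in tumours 1, 2 and 4 and not in tumour 3.

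The output of the pathway into the blood is IGF1 with its binding proteins, and 2 of these 5 genes were higher and 3 lower (median -0.23). Igf1 itself was at 338, 389 and 398 CPM in tumours 1, 2 and 4 and at 594.5 in tumour 3, against 553.5 to 574 in non-tumour. Igfals, which keeps IGF1 in a stable complex in plasma, was at 53.2, 63.2 and 54.8 CPM in tumours 1, 2 and 4 and at 106.8 in tumour 3, against 94.3 to 124 in non-tumour. In CPM, both therefore split the tumours as Cish did, with tumour 3 inside or above the non-tumour range. Per length, tumour 3 stood lower against the other libraries, as for Ghr. The split in Igf1 and Igfals was not examined on that scale. Igfbp1, a binding protein held down by insulin, was at 629, 462.5 and 462 CPM in tumours 1, 2 and 4, at 3.93 in tumour 3 and at 35.7 to 95.4 in non-tumour. Igfbp3 was at 17.7 to 49.2 CPM in tumour and 13.6 to 15.3 in non-tumour.

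Of 12 partner transcription factors, 5 were higher and 7 lower (median -0.14). Trim24, a nuclear receptor cofactor, was at 13.6 to 20.9 CPM in tumour and 9.68 to 12.7 in non-tumour (log2 fold change 0.71, SE 0.23). Zbtb20, a zinc finger repressor, was at 35.1 to 46.2 and 57.2 to 60.5 CPM (-0.52, SE 0.18). The groups of both did not overlap, in opposite directions.

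The lipid, male-biased and female-biased lists had the medians farthest from 0 among the lists, a difference that was not tested. The lipid list holds 6 genes, listed as held down in liver by the receptor, JAK2 and STAT5, which was not tested here. All 6 had a log2 fold change above 0 (median 0.89). So did 7121 of all 13650 genes tested. In Cd36, Pparg and Mogat1 tumour 1 lay below every non-tumour library, and in Cidea tumour 3 did. In Cidec and Fgf21 every tumour library lay above every non-tumour library, as in 5.28% of all genes tested. Of the 6 genes, 1 had an unadjusted p under 0.05 (edgeR), where 2.03% of all genes tested were higher at that p. That gene was Cidec, which encodes a lipid droplet protein, at 6.55 to 12.3 CPM in tumour and 3.07 to 4.61 in non-tumour (log2 fold change 1.22, SE 0.33). Cd36, a fatty acid carrier, was at 52.0 CPM in tumour 1 and 114 to 176 in the other tumour libraries, against 56.4 to 71.9 in non-tumour. Fgf21, a hormone of fasting liver, was at 5.45 to 10.2 CPM in tumour and 0.477 to 5.39 in non-tumour.

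Of 20 male-biased liver genes, 2 were higher and 18 lower in tumour (median -1.02), 8 of the lower ones with an unadjusted p under 0.05, where 1.27% of all genes tested were lower at that p. In 11 of the 20 the groups did not overlap, where 4.92% of all genes tested did so in that direction. With the 8 libraries as separate replicates 5 of them passed, all lower, against 0.248% of all genes called lower in that fit. Elovl3, a fatty acid elongase, was at 122 to 283 CPM in tumour and 508 to 671 in non-tumour (log2 fold change -1.61, SE 0.37). Susd4 was at 15.9 to 30.2 and 47.8 to 58.2 CPM (-1.16, SE 0.25), and Obp2a at 0.380 to 1.18 and 2.72 to 4.30 CPM (-2.12, SE 0.49). These 3 genes, named for their low p-values, were low in tumour 3 as well. Over the whole list, tumour 3 lay below every non-tumour library by CPM in 12 of the 20 genes. In the other 8 it lay within or above the non-tumour range, as it did for Cish. Cyp4a12a, for example, was at 369 CPM in tumour 3 and 289 to 410 in non-tumour.

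Of 23 female-biased liver genes 19 were tested, of which 14 were higher and 5 lower (median 0.94), 5 of the higher ones with an unadjusted p under 0.05, against the 2.03% over all genes. The groups did not overlap in 2 of the 19, both higher, where 5.28% of all genes tested did so in that direction. With the 8 libraries as separate replicates 1 of them passed, against 0.186% of all genes called higher. Hao2, a hydroxy acid oxidase, was at 2.66 to 6.13 CPM in tumour and 0.204 to 1.06 in non-tumour (log2 fold change 2.56, SE 0.59). Its lowest value, in non-tumour 3, was at the detection limit of that library, so the size of its fold change is uncertain. Fmo2, a flavin monooxygenase, was at 4.69 to 17.0 and 2.33 to 3.12 CPM (1.90, SE 0.59). Cyp2b9, a cytochrome P450, was at 124, 179 and 173 CPM in tumours 1, 2 and 4 and at 21.7 in tumour 3, against 25.7 in non-tumour 1 and 8.27 to 8.79 in the rest. Reads shared by close relatives within the Cyp2b, Cyp3a, Cyp4a and Mup families were not counted, so the levels of those genes are uncertain.

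Of 14 clock genes 13 were tested, with 8 higher and 5 lower (median 0.14). Tumour 3 stood apart in them: Per3 was at 18.6 CPM there and at 1.16 to 2.73 in the other libraries, Per2 at 22.9 and 4.55 to 7.55, and Arntl at 2.09 and 16.9 to 23.1. In CPM, tumour 3 was also the tumour that lay with non-tumour liver in Socs2, Cish, Igf1 and Igfals. The part of time of day in those values was not tested. This likeness was not particular to those genes. Over all gene counts, tumour 3 differed less from the non-tumour libraries (chi-square 78.1 to 121.4 per degree of freedom) than from the other tumours (159.6 to 164.9).

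**Figure D5:**
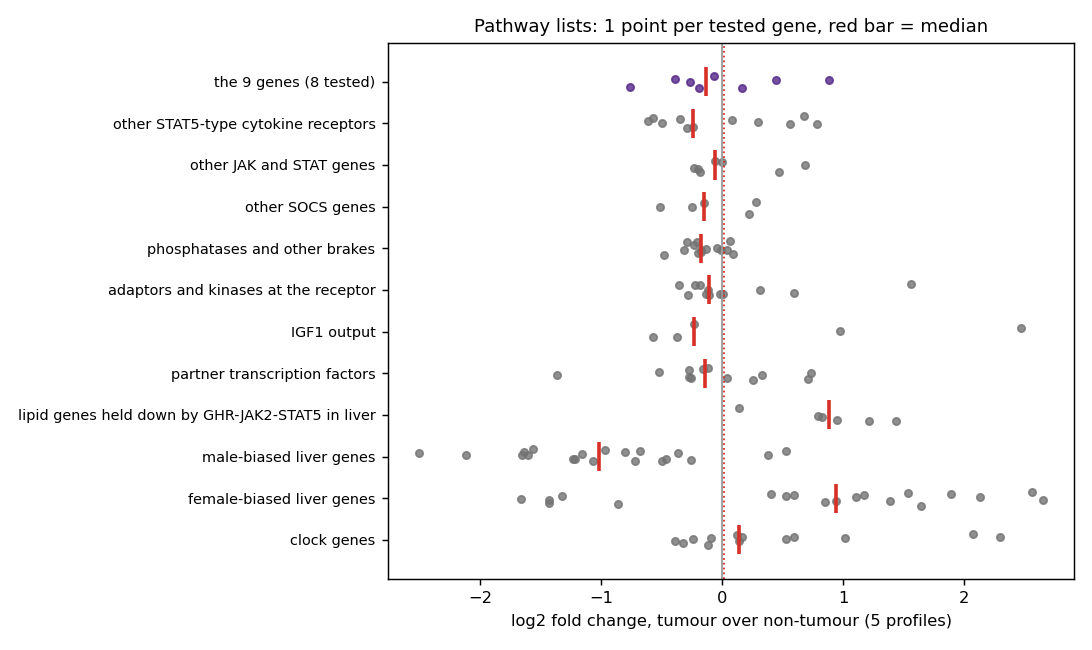
Log2 fold change of tumour over non-tumour from the 5 profiles (x axis), 1 point per tested gene, for the 8 tested genes (purple) and the other pathway lists (grey); red bars are medians and the dotted line is the median of all genes, 0.01. The male-biased list has a median of -1.02 and the female-biased and lipid lists 0.94 and 0.89, while the medians of the other lists lie between -0.24 and 0.14.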

How the data were processed

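Gene counts were deposited as 1 table per library. The authors' counter was featureCounts 1.6.2, per the file headers, run on exons with Ensembl release 95 (GRCm38), strand setting 2 and no multi-mapping reads. The tables give raw counts, gene positions and exon length. STAR 2.5.0 and Subread 1.6.2 are named in the submitters' processing notes. Symbols matched 54723 of 54838 gene IDs. Read length is not given in the sources used here.

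Libraries of a group with a chi-square under 10 per degree of freedom (over genes with at least 20 reads in both together) were summed into 1 profile. CPM used TMM-scaled library sizes, and group means and SDs were taken over profiles. TPM was computed from counts and exon length. Profiles were compared with edgeR 4.0.16 in R 4.3.3 (glmQLFit, robust, and glmQLFTest) after TMM and filterByExpr at a minimum count of 10 and total of 15. P-values were adjusted by Benjamini-Hochberg over all genes, with a threshold of 0.05. The SE is the fold change on the log2 scale over the square root of F. Alternatives were other scalings and filters, DESeq2 1.42.0, voom of limma 3.58.1, separate libraries with and without a replicate block, the deepest library of each near-identical set, and leaving out each profile. Scripts were tested on simulated data.

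The 9 genes, the lists and the tests were chosen with earlier results of these data known. Named were the 9 genes, up to 3 genes per list by lowest p, and for each gene ranging over 1 log2 unit the 3 most alike genes with a mean of 1 CPM or more. Igf1, Arntl, Cyp4a12a and other clock genes and the marker Epcam were named after their values were seen. Cux2, near the detection limit, also ranged over 1 log2 unit, and its likeness is not reported. 1 gene that the naming rule selects is not reported here.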

Additional observations from a re-analysis of the deposited data

How the results depend on the processing

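Every setting gave the 8 tested genes an adjusted p above 0.05 except the one without an expression filter, in which 2 passed: Cish (edgeR adjusted p = 0.0354) and Bcl6 (edgeR adjusted p = 0.0442). Over the 15 alternatives, adjusted p ran from 0.0354 to 1.00 for Cish and from 0.0442 to 1.00 for Bcl6. That setting called 427 genes in all and 31 genes of the pathway lists. With 8 libraries as separate replicates 56 genes and 6 list genes passed, and with DESeq2 2 genes passed (577 with an unadjusted p under 0.05, 0 called and 411 for voom). Leaving out 1 profile at a time gave 0 to 5 called genes, the 5 without tumour 3. The cause was not tested.

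Ghr, Stat5a, Stat5b, Socs2, Cish and Bcl6 kept their direction in all 15 alternatives. The log2 fold change of Stat5b ran from -0.45 to -0.28, that of Cish from -1.50 to -0.31, that of Bcl6 from 0.31 to 1.91 and that of Socs2 from 0.17 to 0.77. Ghr went from -0.26 to -0.08 without tumour 1 and to -0.50 without tumour 3, and Stat5a from 0.16 to 0.03 without tumour 3. Prlr ran from -0.44 to 0.062 over profiles left out and turned positive without tumour 1. Jak2 ran from -0.19 to 0.10 over profiles left out, was positive without tumour 3 or non-tumour 1, and was 0.054 with 8 separate libraries and 0.040 with the replicate block as well. Where an arm was left with 1 profile, that profile was assumed to vary like the other group.

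The replicate block called 0 of 12880 genes, against 56 without it, and 2264 genes had an unadjusted p under 0.05. Of the 8 genes 5 did (Ghr, Stat5b, Socs2, Cish and Bcl6), against 2 without the block. Same-numbered libraries correlated at 0.350, -0.148, 0.286 and -0.124, and 4 of 8 correlated best with their own number. Because near-identical libraries of a group deviate from its mean almost alike, this check cannot tell whether the numbers mark pairs. The labels tie no piece to a mouse, so the numbers were not taken as pairs. The range within tumour exceeded the distance between group means in 8 of the 9 genes, all but Stat5b, under TMM and DESeq2 size factors. By the median over 8 libraries Jak2 and Cish exchanged ranks. The median log2 fold change of all genes stayed between -0.01 and 0.06. Among the 9 genes, depth limits Cux2 only.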

Other observations

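Some genes beside the pathway's core varied between profiles without dividing tumour from non-tumour, and these were chosen after their values were seen. Onecut1, a hepatocyte transcription factor that growth hormone is known to raise, stood at 22.8 CPM in non-tumour 1 and at 2.66 to 8.41 CPM in the other 7 libraries. Lepr, the leptin receptor, was at 7.14, 4.27 and 4.63 CPM in tumours 1, 2 and 4 and at 4.08 CPM in non-tumour 1, against 1.33 CPM in tumour 3 and 1.16 to 1.75 CPM in non-tumour 2 to 4. Socs3, the brake on interleukin-6 signalling, was at 2.60 to 3.30 CPM in tumours 1, 2 and 4 and at 2.87 CPM in non-tumour 1, against 8.68 CPM in tumour 3 and 7.86 to 9.85 CPM in non-tumour 2 to 4. Lepr and Socs3 thus set the same 4 libraries apart, in opposite directions. Non-tumour 1 is also the library with the highest Kupffer cell and endothelial markers, and their part in these values was not tested.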
